A study of Mus musculus with 18 samples.

Results

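The mouse Zfp genes with a 3-digit number of 500 or above are zinc finger genes that carry a number for a name, and they were taken as every gene of the deposited expression table whose symbol is Zfp followed by such a number. By this rule 163 of the 16248 listed genes were members. The table came from bulk RNA sequencing (RNA-seq) of the endothelial cells (ECs) of blood vessels, which were sorted from female FVB mice as live CD45-negative and CD31-positive cells. The 3 sources were the normal mammary fat pad of wild-type mice, spontaneous tumours of MMTV-PyMT mice, in which the MMTV promoter drives the polyoma middle T oncogene mainly in mammary epithelium, and implanted tumours, for which cultured MMTV-PyMT tumour cells had been implanted into the fat pad of FVB hosts. From each source, mice had received buffered saline (PBS) or the STING agonist cGAMP, a dinucleotide that sets off an innate immune response, and ECs were collected 3 hr later. This gave 6 groups of 3 libraries (18 in all). The question asked here was whether these genes were lower after cGAMP, and in which ECs.

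C2H2 zinc finger proteins carry rows of small zinc-binding fingers that recognise DNA. Many also carry a KRAB domain, through which they bring the corepressor TRIM28 (KAP1) and the histone methyltransferase SETDB1 to their targets, often the remains of retroviruses and other transposable elements. Their genes lie in clusters that arose by local duplication, and their transcripts are often scarce and short-lived.

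Read from the GENCODE M21 coding sequences, 87 of the 163 genes encoded a KRAB A-box and 63 encoded at least 2 C2H2 fingers but no such box. A further 11 encoded fewer fingers, and 2 had no coding sequence. The KRAB proteins had a median of 12 finger matches (2 to 33), against 9 (2 to 27) in the C2H2 proteins without KRAB. Chromosome 7 held 44 of the genes, chromosome 17 held 24 and chromosome 8 held 16, and 84 genes lay within 100 kb of another member. Close copies can share reads: in 33 genes at least 5% of the 75-base stretches of the transcripts also occurred in another gene, and 77 genes overlapped another gene. Their values are less certain, because the counting of such reads was not stated in full. Of the genes named below, overlap concerned Zfp513, Zfp516, Zfp521, Zfp593, Zfp595, Zfp638, Zfp677, Zfp703, Zfp704, Zfp706, Zfp710, Zfp740, Zfp750, Zfp791, Zfp799, Zfp800, Zfp963, Zfp971, Zfp979 and Zfp984. Shared stretches concerned Zfp706, Zfp764, Zfp931, Zfp937, Zfp963, Zfp970, Zfp971, Zfp979, Zfp984 and Zfp994.

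Promoter sequences were examined because many of these genes moved together. RefSeq (GRCm38.p6) gave a promoter of 300 bases, from 250 before to 50 after the start, for 135 of the 163 genes, 166 promoters in all. Zfp623, Zfp937, Zfp799 and Zfp563 had the largest mean falls among the 5 genes that were lower under cGAMP in all tissues (below). The promoters of the last 3 of these are shown, since none was given for Zfp623. They lie at chr2:150217849-150218148 (+ strand, Zfp937), chr17:32830212-32830511 (- strand, Zfp799) and chr17:33089117-33089416 (+ strand, Zfp563), and capitals mark matches to CCAAT or TATAAA on either strand.
Zfp937: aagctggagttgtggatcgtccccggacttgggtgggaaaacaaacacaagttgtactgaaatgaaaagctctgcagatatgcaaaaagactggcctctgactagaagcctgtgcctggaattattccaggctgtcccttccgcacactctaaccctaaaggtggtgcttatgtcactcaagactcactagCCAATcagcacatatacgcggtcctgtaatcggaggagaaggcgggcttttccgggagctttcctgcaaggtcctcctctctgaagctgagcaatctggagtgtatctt
Zfp799: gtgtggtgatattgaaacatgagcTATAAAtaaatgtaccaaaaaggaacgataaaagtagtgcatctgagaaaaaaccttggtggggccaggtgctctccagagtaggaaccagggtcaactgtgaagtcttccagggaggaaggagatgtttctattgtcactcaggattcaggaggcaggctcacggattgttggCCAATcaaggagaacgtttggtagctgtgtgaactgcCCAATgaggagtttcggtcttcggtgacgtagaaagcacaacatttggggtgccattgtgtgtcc
Zfp563: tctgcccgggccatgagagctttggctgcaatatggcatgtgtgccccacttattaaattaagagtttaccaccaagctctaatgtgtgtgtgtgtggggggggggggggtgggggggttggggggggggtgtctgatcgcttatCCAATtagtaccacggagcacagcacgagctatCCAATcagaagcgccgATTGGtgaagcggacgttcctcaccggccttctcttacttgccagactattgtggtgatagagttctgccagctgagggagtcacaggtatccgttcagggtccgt

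The letters CCAAT, a common promoter element, occurred on either strand in 50.6% of the member promoters and in 67.8% of the promoters of KRAB members. They occurred in 37.4% of all 32851 promoters and in 36.9% of those of tested genes. TATAAA occurred in 4.22% of the member promoters, against 13.6% of all promoters and 7.33% of those of tested genes. An interferon-stimulated response element (ISRE) occurred in 1.2%, against 3.44% and 3.07% in the same order. A match to the NRF1 motif was found in 9.04%, against 4.6% and 9.34%, and the YY1 letters AAGATGG in 6.63%, against 6.34% and 6.95%. Member promoters held a median of 14.5 CpG dinucleotides, all promoters 7 and those of tested genes 20. CCAAT was searched after the printed sequences had been seen, and these shares are a description.

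Between 9124935 and 12129416 whole reads per library were recovered from the deposited FPKM values (fragments per kilobase, a level that takes gene length and library size into account). The errors below rest on 3 libraries per group. The legends of the study describe the libraries of a group as separate mice from independent experiments, but the labels do not say which libraries shared an experiment, so experiment could not enter the fit. Summed FPKM of 5 endothelial markers lay between 523 and 1360. Markers of other cells were detected too. The 5 epithelial markers summed to between 206 and 792 FPKM and the 4 mural cell markers to between 151 and 881. The 5 leukocyte markers summed to between 14.3 and 183, with the highest library among the implanted cGAMP group, and the 3 fibroblast markers to between 33 and 471, also highest there. No marker of these lists was at 0, and 2 adipocyte markers were not among the listed genes. The part of other cells in the results below was not tested, and in bulk samples fewer cells of a type and less RNA per cell cannot be told apart. All 6 interferon genes taken as a check on the treatment rose in all 3 tissues.

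The members were weakly expressed. Averaged over the 18 libraries, their FPKM had a median of 2.06 (0.179 to 19.4), against 3.7 for all listed genes, and 35 lay under 1. A member had a median of 89 reads per library (5 to 1562.5 between members). KRAB members had the lowest median level, with 1.55 FPKM, against 3.02 for C2H2 members without KRAB and 8.66 for the 11 others. The highest mean levels were those of Zfp706, Zfp503, Zfp703, Zfp664 and Zfp740. Genes were tested with limma where FPKM was at least 1 in at least 3 libraries. This filter kept 143 members and left out 20, whose mean FPKM lay at or below 0.664, and 1 of the 143 passed through a single group.

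Summed over all 163 genes, the level was lower under cGAMP than under PBS in ECs of all 3 tissues. In normal ECs the summed FPKM was 568, 590 and 605 under PBS and 502, 510 and 519 under cGAMP. In MMTV-PyMT ECs it was 616, 600 and 609 under PBS and 559, 510 and 528 under cGAMP. In implanted ECs it was 498.7, 480.4 and 490.9 under PBS and 458, 432 and 456 under cGAMP. In none of the tissues did the PBS and the cGAMP libraries overlap. As a share of the library, members took 37.5 ± 0.306 (SD, n = 3) of every 10000 reads in normal ECs under PBS and 33.2 ± 1.42 under cGAMP. The shares were 37.6 ± 0.802 and 30.4 ± 1.65 (SD, n = 3) in MMTV-PyMT ECs, and 27.5 ± 0.85 and 20.1 ± 1.27 (SD, n = 3) in implanted ECs. Other genes fell on this scale too. Scaled by total reads, all tested genes had a median log2 change of -0.25 in implanted ECs, against -0.01 with the deposited scaling. For MMTV-PyMT ECs these medians were -0.14 and -0.04, and for normal ECs -0.05 and -0.04. The falls in share, above all in implanted ECs, are therefore not specific to the members.

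**Figure D1:**
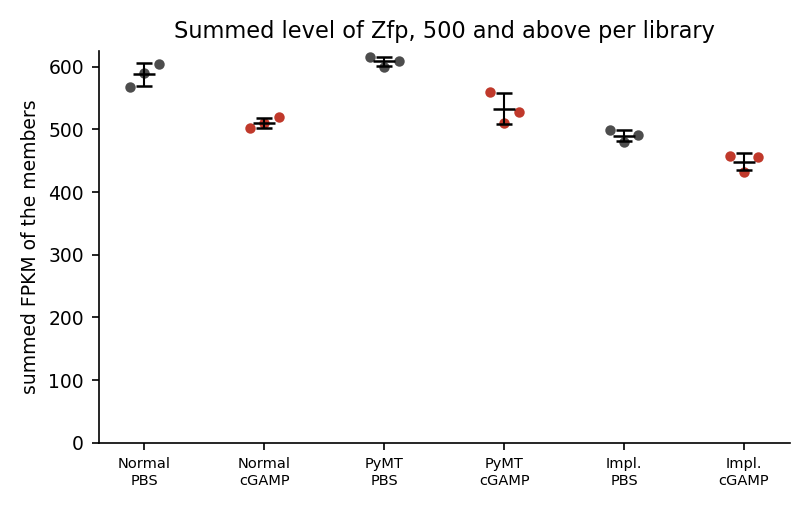
Summed FPKM of the 163 genes (vertical axis, from 0) in each of the 18 libraries, by tissue and treatment (PyMT, MMTV-PyMT; Impl., implanted). Points are libraries, horizontal bars are means and whiskers are SD (n = 3), and the cGAMP libraries (red) lie below the PBS libraries (grey) of the same tissue, with 502 to 519 against 568 to 605 in normal ECs.

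Gene by gene, falls outnumbered rises in every tissue. In normal ECs 49 of the 143 tested members (34.3%) were lower under cGAMP and 8 (5.59%) were higher at an adjusted p under 0.05 (limma with Benjamini-Hochberg adjustment over all 13983 tested genes). Of all tested genes, 18.2% were lower and 13.7% were higher there. In implanted ECs 49 members (34.3%) were lower and 13 (9.09%) were higher, against 18.8% and 20.3% of all tested genes. In MMTV-PyMT ECs, where few genes passed the test, 14 members (9.79%) were lower and 1 (0.699%) was higher, against 4.57% and 7.42% of all tested genes. The 14 became 7 or 8 without MMTV-PyMT PBS 2 or 3 or without MMTV-PyMT cGAMP 2 or 3. With scaling by total reads in place of the deposited scaling, 50 members were lower and 8 higher in normal ECs. The numbers were 52 and 1 in MMTV-PyMT and 85 and 7 in implanted ECs. The matching shares of all tested genes are not given here, but this scaling moved their median by -0.01, -0.11 and -0.23. The member median minus that of all tested genes was then -0.16, -0.15 and -0.13, against -0.15, -0.16 and -0.2 with the deposited scaling. Among tested genes with a mean FPKM under 5, the level of most members, 14.5%, 4.02% and 17.7% were lower in normal, MMTV-PyMT and implanted ECs. Without the filter, 56 (34.4%), 15 (9.2%) and 56 (34.4%) of the 163 members were lower, against 15.7%, 3.66% and 16.4% of all 16248 genes. In that fit 8, 1 and 13 members (4.91%, 0.613% and 7.98%) were higher, against 12.9%, 6.2% and 18.1%.

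The falls were mostly small. Log2 changes were taken after adding 1 to the FPKM, and for genes as weakly expressed as these they come out too small. The median log2 change of the tested members was -0.20 in normal ECs, also -0.20 in MMTV-PyMT ECs and a little lower, -0.22, in implanted ECs, against -0.04, -0.04 and -0.01 for all tested genes. On recovered reads, which have no such pseudocount (limma-voom), the member medians were -0.31, -0.29 and -0.31. On the log2(FPKM + 1) scale a fall of at least 1 was called for 3 members in normal ECs (Zfp760, Zfp521 and Zfp931) and for 0 in each tumour type, where 0.687%, 0.0715% (MMTV-PyMT) and 1.09% (implanted) of all tested genes passed. On the FPKM scale itself, 14 members called lower in normal ECs (9.79%; 2.36% of all tested genes) and 15 in implanted ECs (10.5%; 4.08%) were at 50% or less of the mean PBS level, and 0 in MMTV-PyMT ECs (0.393% of all tested genes). Of the 143 members, 83 had a negative and 9 a positive log2 change in all 3 tissues. All 3 cGAMP libraries lay below all 3 PBS libraries for 70 members (49%; 28.0% of all tested genes) in normal ECs. In MMTV-PyMT ECs this held for 60 (42%; 18.6%) and in implanted ECs for 62 (43.4%; 22.8%).

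**Figure D2:**
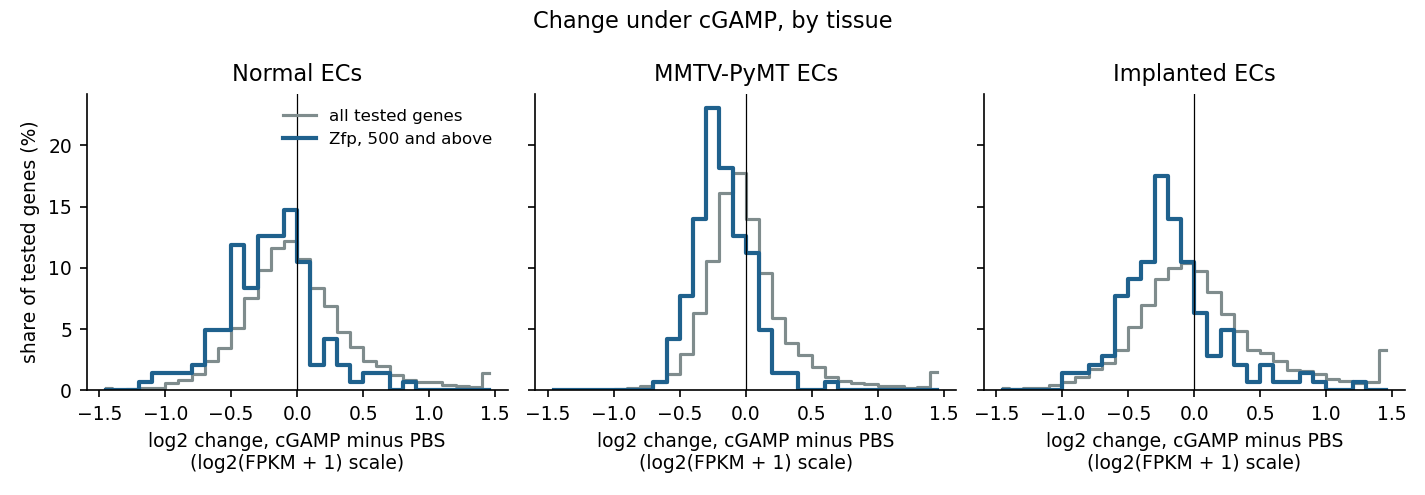
Share of genes (vertical axis, percent) in bins of log2 change between cGAMP and PBS (horizontal axis, log2(FPKM + 1) scale) for the 143 tested members (blue) and all 13983 tested genes (grey), by tissue. Changes beyond 1.5 either way stand in the outermost bins, and the members are shifted to the left, with medians of -0.20, -0.20 and -0.22 against -0.04, -0.04 and -0.01.

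By protein type, the shift was larger for KRAB members in normal ECs. There 34 of the 72 tested KRAB members (47.2%) fell and 2 rose, with a median log2 change of -0.32. Of the 59 tested C2H2 members without KRAB, 13 (22%) fell and 4 rose, with a median of -0.07, and of the 11 others 2 fell and 2 rose. The share lower among C2H2 members without KRAB lay near the 18.2% of all tested genes there, whose median was -0.04. In MMTV-PyMT ECs 10 KRAB members (13.9%) and 4 C2H2 members without KRAB (6.78%) fell, with medians of -0.25 and -0.12, against 4.57% and -0.04 for all tested genes. In implanted ECs the shares were alike, with 26 KRAB members (36.1%) and 21 C2H2 members without KRAB (35.6%) lower, and medians of -0.24 and -0.18, against 18.8% and -0.01. These differences between protein types were not tested, and KRAB members were also the more weakly expressed. By level, 42.4% of the 59 tested members with a mean FPKM under 2 and 28.6% of the 84 above it fell in normal ECs, 15.3% and 5.95% in MMTV-PyMT ECs, and 33.9% and 34.5% in implanted ECs.

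**Figure D3:**
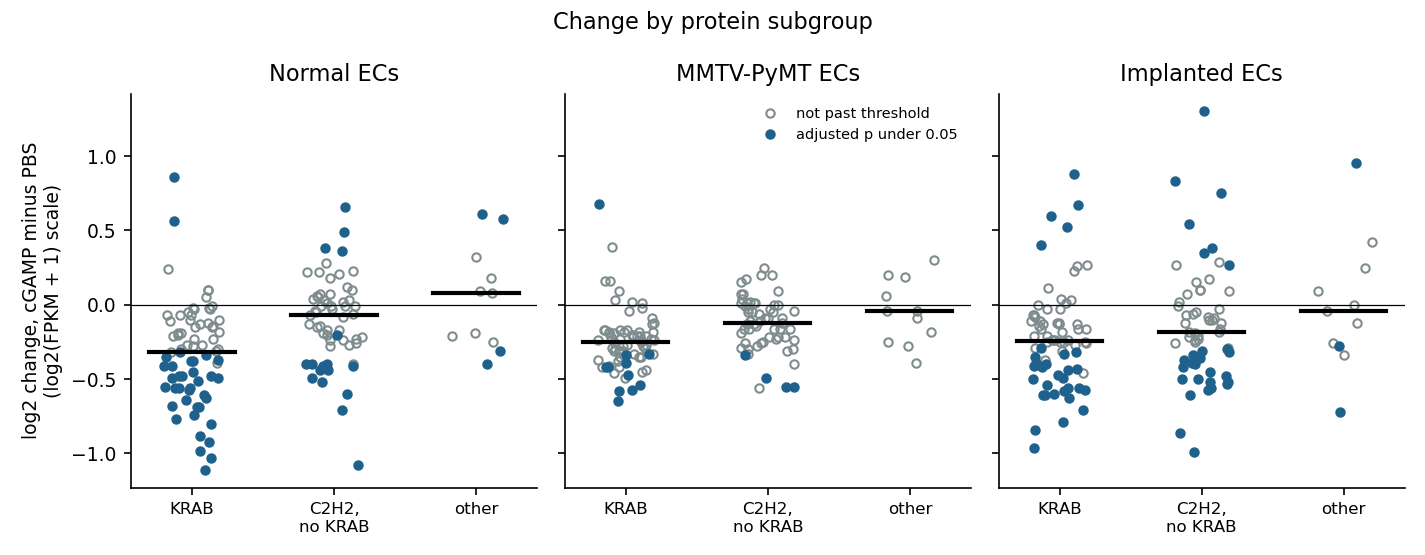
Log2 change between cGAMP and PBS (vertical axis, log2(FPKM + 1) scale) of the 143 tested members except 1 without a coding sequence, by protein type and tissue. Each point is a gene, filled where the adjusted p was under 0.05 (limma), and thick bars are medians, which lay at -0.32 for KRAB members and -0.07 for C2H2 members without KRAB in normal ECs.

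Other zinc finger genes fell too, in larger shares than the members in MMTV-PyMT (9.79%) and implanted ECs (34.3%). Of the 137 tested Zfp genes numbered below 500, normal ECs held 48 (35.0%) that fell, MMTV-PyMT ECs 23 (16.8%) and implanted ECs 58 (42.3%), and the medians were -0.26, -0.18 and -0.23. Of 46 tested Zbtb, Zscan and Zkscan genes, zinc finger genes that pair the fingers with a BTB or SCAN domain, 13 (28.3%), 9 (19.6%) and 17 (37.0%) fell. Among the 65 tested members with under 5% shared 75-base stretches and no overlapping gene, 20 (30.8%), 7 (10.8%) and 23 (35.4%) fell in the same order of tissues. Their medians were -0.18, -0.21 and -0.24. By place, 6 of the 7 tested members on chromosome 13 fell in normal ECs and 1 in implanted ECs. Of the 5 tested members on chromosome 2, 4 fell in normal and 4 in implanted ECs. On chromosome 7, with 39 tested members, 10 fell in normal and 16 in implanted ECs. Of all tested genes, on any chromosome, 18.2% fell in normal and 18.8% in implanted ECs. Differences between chromosomes were not tested, and most of these counts are small.

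The corepressors that KRAB proteins recruit were counted in the same way. Of 26 listed genes of this machinery, 7 (26.9%) were lower and 2 (7.69%) higher in normal ECs, where 18.2% and 13.7% of all tested genes were. In MMTV-PyMT ECs 3 (11.5%) were lower and 3 higher, against 4.57% and 7.42%, and in implanted ECs 12 (46.2%) were lower and 4 (15.4%) higher, against 18.8% and 20.3%. The list medians were -0.06, -0.10 and -0.22, with -0.04, -0.04 and -0.01 for all tested genes. Trim28 went from 47.0 ± 0.227 to 32.2 ± 2.34 FPKM (SD over 3 libraries) in implanted ECs (log2 change -0.53, adjusted p = 0.000377, limma), and in normal ECs it was 36.3 ± 1.91 and 32.1 ± 5.27 FPKM (log2 change -0.18, adjusted p = 0.163, limma). Setdb1 fell in normal (log2 change -0.36) and implanted ECs (-0.55), and Atf7ip, a partner of SETDB1, fell in all tissues (normal ECs -0.42, MMTV-PyMT ECs -0.30, implanted ECs -0.52). Hdac1 and Gatad2a, of the NuRD deacetylase complex, rose in all tissues, and Morc3, a chromatin ATPase, rose in MMTV-PyMT (0.69) and implanted ECs (1.8).

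Across tissues, 5 members were lower under cGAMP in all 3, namely Zfp563, Zfp623, Zfp799, Zfp937 and Zfp994 (5 of 143, where 1.36% of all tested genes did so). A further 28 were lower in 2 tissues and 41 in 1, which makes 74 in all, and 52 passed in neither direction in any tissue. The matching shares of all tested genes are not given here, so these counts cannot be set against the whole table. The 5 became 3 without any 1 of normal PBS 2, normal cGAMP 1, MMTV-PyMT PBS 3, implanted PBS 1 and implanted PBS 3. Lower in both normal and implanted ECs were 27 of the 143 tested members (18.9%), against 7.8% of all tested genes. These 27 were 55.1% of the 49 members lower in normal ECs and also 55.1% of the 49 lower in implanted ECs. Of all tested genes lower in normal ECs, 42.9% were also lower in implanted ECs, and 41.6% the other way round. Lower in both MMTV-PyMT and implanted ECs were 11 members (7.69%; 2.73% of all tested genes), which were 78.6% of the 14 and 22.4% of the 49, against 59.8% and 14.6% for all tested genes. Lower in both MMTV-PyMT and normal ECs were 5 members (3.5%; 1.83%), which were 35.7% of the 14 and 10.2% of the 49, against 40.1% and 10.1% for all tested genes.

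Zfp623 (chr15:75940952-75949400, + strand), which encodes 12 fingers and no KRAB box, had the largest mean fall of the 5. Its FPKM in normal ECs was 4.87, 5.66 and 4.42 under PBS and 2.88, 3.58 and 3.74 under cGAMP. In MMTV-PyMT ECs it was 4.52, 3.64 and 3.51 under PBS and 1.86, 2.29 and 2.90 under cGAMP. In implanted ECs it was 5.30, 4.77 and 4.56 under PBS and 2.07, 2.34 and 2.27 under cGAMP. No cGAMP library reached a PBS library in any tissue, and the log2 changes were -0.44 ± 0.12, -0.55 ± 0.12 and -0.86 ± 0.12 (SE) with adjusted p = 0.0122, 0.00795 and 4.11e-05 (limma) in normal, MMTV-PyMT and implanted ECs.

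Zfp937 (chr2:150218073-150240725, + strand), a KRAB gene with 18.6% of its 75-base stretches shared with another gene, was at 2.36, 1.96 and 1.65 FPKM under PBS and at 1.03, 0.89 and 0.855 under cGAMP in normal ECs. In MMTV-PyMT ECs it was at 2.15, 2.90 and 2.73 under PBS and at 1.48, 1.36 and 1.40 under cGAMP, and in implanted ECs at 2.14, 1.41 and 1.74 and at 0.684, 1.02 and 0.812. The groups did not overlap, and the level under cGAMP was 46.5%, 54.5% and 47.5% of that under PBS. Log2 changes were -0.63, -0.57 and -0.58 (SE 0.12 each) with adjusted p = 0.00111, 0.00596 and 0.00128 (limma).

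Zfp799 (chr17:32815449-32830261, - strand), with 16 fingers, one gene on the other strand in overlap and no KRAB box, went from 3.18 ± 0.471 to 1.74 ± 0.226 FPKM in normal ECs (SD, n = 3). In MMTV-PyMT ECs it went from 2.57 ± 0.268 to 1.44 ± 0.188, and the implanted groups stood at 1.47 ± 0.187 and 0.888 ± 0.0873. All cGAMP libraries were again below those of PBS. Zfp994 (chr17:22197265-22225616, - strand), a KRAB gene, was at 65.9%, 61.1% and 72.9% of its PBS level in normal, MMTV-PyMT and implanted ECs. Its calls in MMTV-PyMT and implanted ECs were lost in 1 and 5 of 25 alternative fits. Zfp563 (chr17:33089310-33110705, + strand), also a KRAB gene and expressed at about 1 FPKM, was at 52.7%, 58.2% and 58.1%. For MMTV-PyMT ECs its adjusted p was 0.0461 and for implanted ECs 0.0495 (limma), close to the threshold, and those calls were lost in 14 and 15 of 25 alternative fits.

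Against this direction, Zfp945 rose in all 3 tissues. Zfp945 (chr17:22846697-22867134, - strand) encodes a KRAB box and 18 fingers, shared no 75-base stretch with another gene and overlapped none. Its FPKM in normal ECs was 2.06, 1.92 and 1.99 under PBS and 4.04, 4.46 and 4.77 under cGAMP. In MMTV-PyMT ECs it was 1.38, 1.32 and 1.23 under PBS and 2.90, 2.81 and 2.44 under cGAMP. In implanted ECs it was 1.36, 1.14 and 1.22 under PBS and 3.53, 2.54 and 3.34 under cGAMP. The groups stood well apart, with 222%, 207% and 253% of the PBS level, log2 changes of 0.86, 0.68 and 0.88 (SE 0.10 each) and adjusted p = 1.22e-05, 0.000171 and 3.46e-06 (limma).

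**Figure D4:**
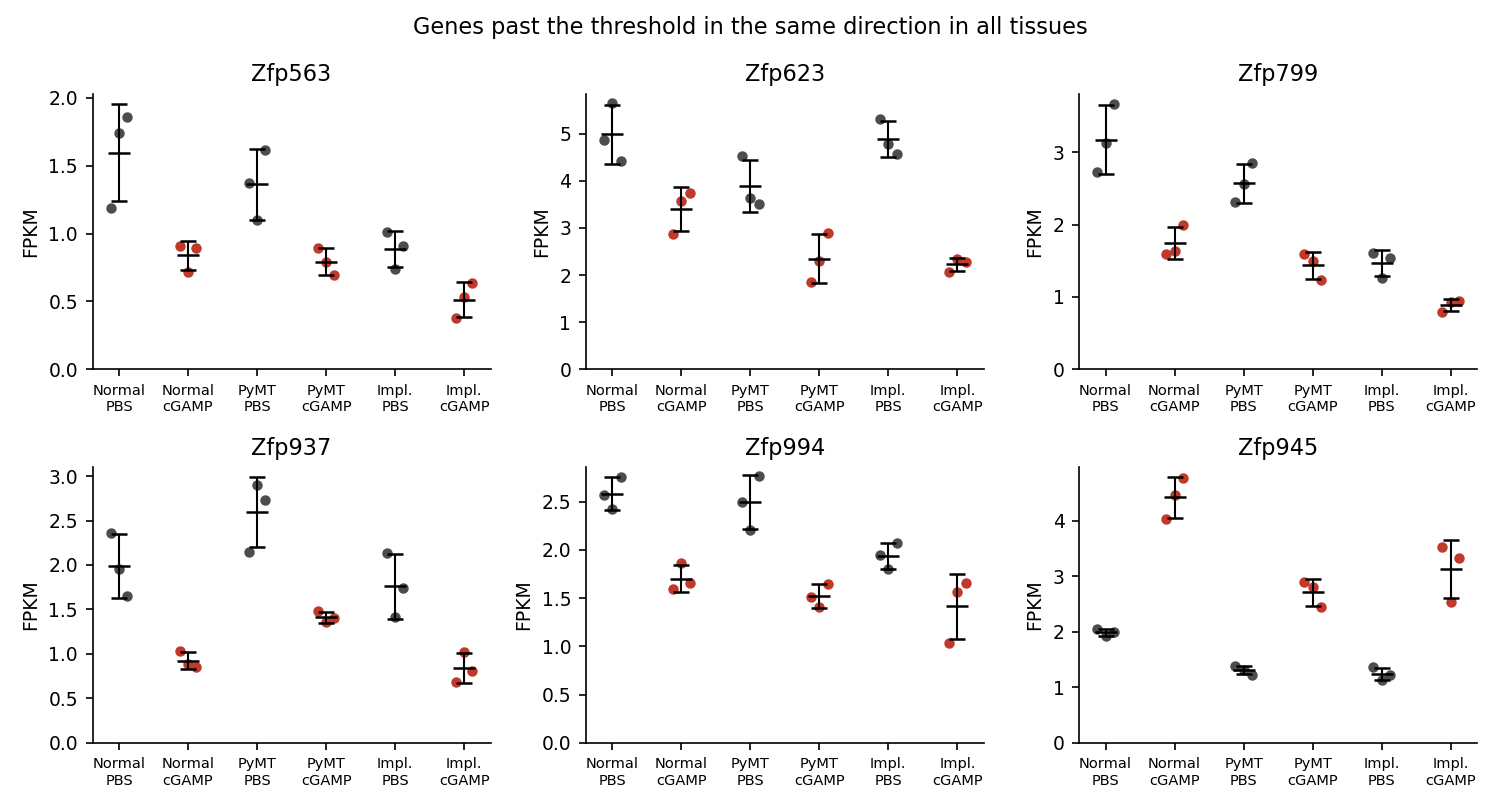
FPKM (vertical axes, from 0) per library of the 5 members lower under cGAMP in all 3 tissues and of Zfp945, higher in all 3, by tissue and treatment (PyMT, MMTV-PyMT; Impl., implanted). Points are libraries (grey PBS, red cGAMP), horizontal bars means and whiskers SD (n = 3), and Zfp945 moves from 1.99 to 4.42 FPKM in normal ECs while the other genes move down.

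In normal ECs the 10 largest falls were those of Zfp760, Zfp521, Zfp931, Zfp982, Zfp984, Zfp963, Zfp971, Zfp979, Zfp763 and Zfp638, 8 of them KRAB genes. Zfp760, a KRAB gene on chromosome 17, was at 2.84, 2.74 and 2.98 FPKM under PBS and at 0.83, 0.824 and 0.7 under cGAMP, with no overlap (log2 change -1.11 ± 0.12 SE, adjusted p = 5.78e-06, limma). It fell to a like degree in implanted ECs, from 1.60, 1.15 and 2.02 to 0.455, 0.254 and 0.258 FPKM (log2 change -0.96). Zfp521, a multi-finger regulator known from blood and mesenchymal progenitors, was at 12.3, 15.6 and 13.5 FPKM under PBS and at 4.83, 6.44 and 6.71 under cGAMP in normal ECs (log2 change -1.08 ± 0.16 SE, adjusted p = 0.000118, limma). Zfp638, a large RNA- and DNA-binding nuclear protein linked to fat cell formation, fell from 8.33, 9.24 and 9.97 to 6.26, 4.81 and 4.71 FPKM (log2 change -0.71).

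A block of KRAB genes on chromosome 4 stood out by its level in normal ECs. Zfp982, Zfp979 and Zfp984 lie between positions 147492417 and 147809788 of that chromosome and shared 4.9%, 23.6% and 40.9% of their 75-base stretches with other genes. Under PBS, Zfp982 was at 6.89, 8.73 and 8.68 FPKM in normal ECs, against 0.861, 0.744 and 0.793 in MMTV-PyMT ECs and 1.94, 2.05 and 1.16 in implanted ECs. With cGAMP it fell to 3.58, 3.35 and 3.90 in normal ECs and to 0.482, 0.399 and 1.13 in implanted ECs, and it was at 1.18, 2.02 and 0.998 in MMTV-PyMT ECs (log2 change 0.39, adjusted p = 0.174, limma). Zfp979 went from 8.51, 8.74 and 11.7 to 5.22, 4.84 and 5.55 FPKM in normal ECs, and Zfp984 from 5.0, 4.02 and 5.64 to 2.52, 2.20 and 1.64. On chromosome 2, Zfp931 and its neighbour Zfp971 fell in normal (log2 change -1.03 and -0.80) and implanted ECs (-0.84 and -0.61).

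In implanted ECs the largest falls were those of Zfp637 and Zfp760, followed by Zfp623, Zfp931, Zfp764, Zfp704, Zfp982, Zfp568, Zfp692 and Zfp971. Zfp637, a C2H2 gene on chromosome 6, was at 7.05, 6.08 and 6.43 FPKM under PBS and at 2.19, 2.97 and 3.24 under cGAMP (log2 change -0.99 ± 0.16 SE, adjusted p = 0.000106, limma). Zfp704 was at 3.68, 2.93 and 3.6 under PBS and at 1.44, 1.73 and 1.83 under cGAMP (log2 change -0.72). Zfp568, a KRAB protein known to repress a placental promoter of Igf2, fell from 5.5, 4.98 and 5.71 to 3.71, 2.54 and 3.20 FPKM in implanted ECs (log2 change -0.63) and was at 84.6% and 82.1% of its PBS level in normal and MMTV-PyMT ECs, where it did not pass the test.

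In MMTV-PyMT ECs the falls were led by Zfp788, Zfp791, Zfp937, Zfp623 and Zfp799, then Zfp772, Zfp770, Zfp994, Zfp677 and Zfp606. The calls of Zfp606, Zfp677, Zfp772, Zfp791 and Zfp994 there were lost in 8, 6, 5, 3 and 1 of 25 alternative fits. Those of the other genes held in all 25. Zfp788, a KRAB gene with 23 fingers, was at 3.55, 3.65 and 4.08 FPKM under PBS and at 2.59, 1.68 and 1.90 under cGAMP (log2 change -0.65 ± 0.14 SE, adjusted p = 0.0066, limma). It also fell in implanted ECs (log2 change -0.61) and was at 86.4% of its PBS level in normal ECs, where the libraries overlapped.

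Rises other than that of Zfp945 were mostly seen in 1 tissue. In implanted ECs Zfp800, with 6 fingers and no KRAB box, was at 5.41, 4.89 and 5.13 FPKM under PBS and at 18.6, 11.3 and 13.2 under cGAMP (log2 change 1.30 ± 0.13 SE, adjusted p = 7.85e-07, limma), the only member called higher with a log2(FPKM + 1) change of at least 1, where 3.02% (normal), 2.49% (MMTV-PyMT) and 6.13% (implanted) of all tested genes passed. On the FPKM scale 3 members called higher reached at least 200% of the mean PBS level in normal ECs (Zfp593, Zfp711 and Zfp945; 5.69% of all tested genes), 1 in MMTV-PyMT ECs (Zfp945; 3.77%) and 4 in implanted ECs (Zfp658, Zfp750, Zfp800 and Zfp945; 9.3%). Zfp513 (log2 change 0.83) and Zfp516 (0.75), a regulator of brown fat genes, also rose there, and Zfp516 rose in normal ECs too (0.49). Zfp750, a factor of epidermal differentiation, went from 6.19, 3.49 and 3.98 to 6.11, 14 and 9.84 FPKM in implanted ECs, with overlapping libraries (log2 change 0.95 ± 0.27 SE, adjusted p = 0.0112, limma). Epithelial markers summed to 296 to 425 FPKM under PBS and to 206 to 450 under cGAMP there, and leukocyte markers to 23.1 to 57.1 and 40.8 to 183. In normal ECs Zfp711, an X-linked gene, rose from 0.903, 0.686 and 0.417 to 1.34, 1.57 and 1.96 FPKM. Zfp703, a corepressor of the NET family, rose there from 13.6, 12.4 and 14.6 to 20.8, 21.5 and 21.3 FPKM, and Zfp593, a factor of ribosome assembly, and Zfp948 rose as well (log2 change 0.58 and 0.56).

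Whether the response differed between tissues was tested by the difference of the cGAMP effects, in which comparisons share libraries. Between implanted and MMTV-PyMT ECs it passed for 13 members, with 6 lower (4.2% of 143; 3.72% of all tested genes) and 7 higher (4.9%; 7.34%) in implanted ECs. Between implanted and normal ECs 4 were lower (2.8%; 6.09%) and 7 higher (4.9%; 12.5%), and between MMTV-PyMT and normal ECs 1 was lower (0.699%; 2.9%) and 6 were higher (4.2%; 5.48%). The median difference over members was 0.01, 0.05 and 0.02. The 11 members between implanted and normal ECs became 5 to 7 without any 1 of normal PBS 2 or 3, normal cGAMP 2 and implanted PBS 1 or 3, and the 7 between MMTV-PyMT and normal ECs became 12 without MMTV-PyMT cGAMP 1. Zfp658, a KRAB gene with 21 fingers, was the only member that fell in one tissue and rose in another. It went from 1.84, 2.03 and 2.14 to 1.27, 1.02 and 1.16 FPKM in normal ECs and from 0.857, 1.13 and 0.869 to 2.09, 1.94 and 1.81 in implanted ECs, with no overlap in either (difference of the log2 changes 1.08 ± 0.14 SE, adjusted p = 7.3e-05, limma). Zfp521, which fell in normal ECs, was at 116% of its PBS level in MMTV-PyMT and at 124% in implanted ECs, and the effects differed by 1.29 and 1.35 (adjusted p = 0.00379 and 0.000649, limma). The 3 fibroblast markers summed to 47.4 to 54.1 FPKM under PBS and to 33.0 to 61.6 under cGAMP in normal ECs. In implanted ECs the sums were 180 to 209 and 197 to 471. Most of each sum was Col1a1. The log2 changes of Col1a1, Dcn and Lum under cGAMP were 0.78, 0.91 and 0.66 in implanted ECs. In normal ECs they were -0.21, -0.25 and -0.46, and in MMTV-PyMT ECs 0.01, -0.4 and -0.34. In their levels under PBS the markers disagreed. Under PBS, Col1a1 was at 33.8 FPKM in normal and 186 in implanted ECs, but Dcn was at 11.2 and 2.25 and Lum at 6.28 and 2.21. The part of fibroblasts was not tested.

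Under PBS alone, members were lower in implanted ECs than in the other ECs. Against normal ECs 62 members (43.4%) were lower and 16 (11.2%) higher, where 23.6% and 25.0% of all tested genes were (limma with Benjamini-Hochberg adjustment, as above), and the median log2 difference was -0.28. Against MMTV-PyMT ECs 50 (35.0%) were lower and 8 (5.59%) higher, where 24.6% and 20.8% of all tested genes were, with a median of -0.15. MMTV-PyMT ECs held 41 members (28.7%) lower and 21 (14.7%) higher than normal ECs, against 26.6% and 29.8%, with a median of -0.05. KRAB members accounted for 41 of the 62 lower in implanted than in normal ECs, with a median of -0.42, against -0.14 for C2H2 members without KRAB.

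The largest differences between tissues exceeded those under cGAMP. Zfp503, like Zfp703 a member of the NET family of corepressors, was at 6.11, 5.5 and 6.0 FPKM in normal, 35.4, 35.1 and 39.1 in MMTV-PyMT and 10.4, 9.05 and 10.2 in implanted ECs under PBS. The 3 tissues did not overlap, and the log2 difference between MMTV-PyMT and normal ECs was 2.45 ± 0.10 SE (adjusted p = 1.87e-10, limma). Zfp750 was at 3.88, 4.59 and 2.80 in normal, 15.3, 13.2 and 14.3 in MMTV-PyMT and 6.19, 3.49 and 3.98 in implanted ECs. The summed epithelial markers were also highest in MMTV-PyMT ECs, with 293 to 362, 727 to 792 and 296 to 425 FPKM in normal, MMTV-PyMT and implanted ECs under PBS. The single markers disagreed. Epcam, Krt8 and Krt18 were higher in MMTV-PyMT than in normal ECs, but Krt14 and Krt5 did not pass that test. In implanted against normal ECs, Epcam was higher (log2 difference 0.7) and Krt5 was lower (-1.81). Krt8, Krt18 and Krt14 did not pass that test, and Zfp503 was higher (0.66). The part of epithelial cells in these differences was not tested. Zfp791, a KRAB gene that fell in both tumour types, was at 0.46, 0.572 and 0.501 in normal, 3.5, 3.76 and 3.31 in MMTV-PyMT and 1.45, 1.42 and 1.37 in implanted ECs. Zfp710 was lowest in normal ECs, with 4.65, 4.58 and 4.24 FPKM, against 10.3, 8.83 and 8.92 in MMTV-PyMT and 13.0, 12.5 and 11.4 in implanted ECs.

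Highest in normal ECs, beside Zfp982 and Zfp979, were Zfp970, Zfp704, Zfp931 and Zfp595. Zfp979 was at 8.51, 8.74 and 11.7 FPKM there, against 2.22, 3.14 and 2.22 in MMTV-PyMT and 2.66, 2.69 and 1.99 in implanted ECs, and the tumour groups overlapped. Zfp704 stood at 9.28, 9.02 and 8.78 in normal, 6.66, 5.84 and 6.46 in MMTV-PyMT and 3.68, 2.93 and 3.6 in implanted ECs, with no overlap (log2 difference between implanted and normal ECs -1.19 ± 0.09 SE, adjusted p = 2e-08, limma). Mural cell markers were also highest in normal ECs, with summed levels of 776 to 881 FPKM under PBS, against 194 to 270 in MMTV-PyMT and 177 to 217 in implanted ECs, and their part was not tested. Zfp622, a factor of ribosome assembly, was highest in implanted ECs, with 6.55, 5.54 and 6.13 FPKM against 3.72, 3.73 and 3.52 in normal ECs.

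**Figure D5:**
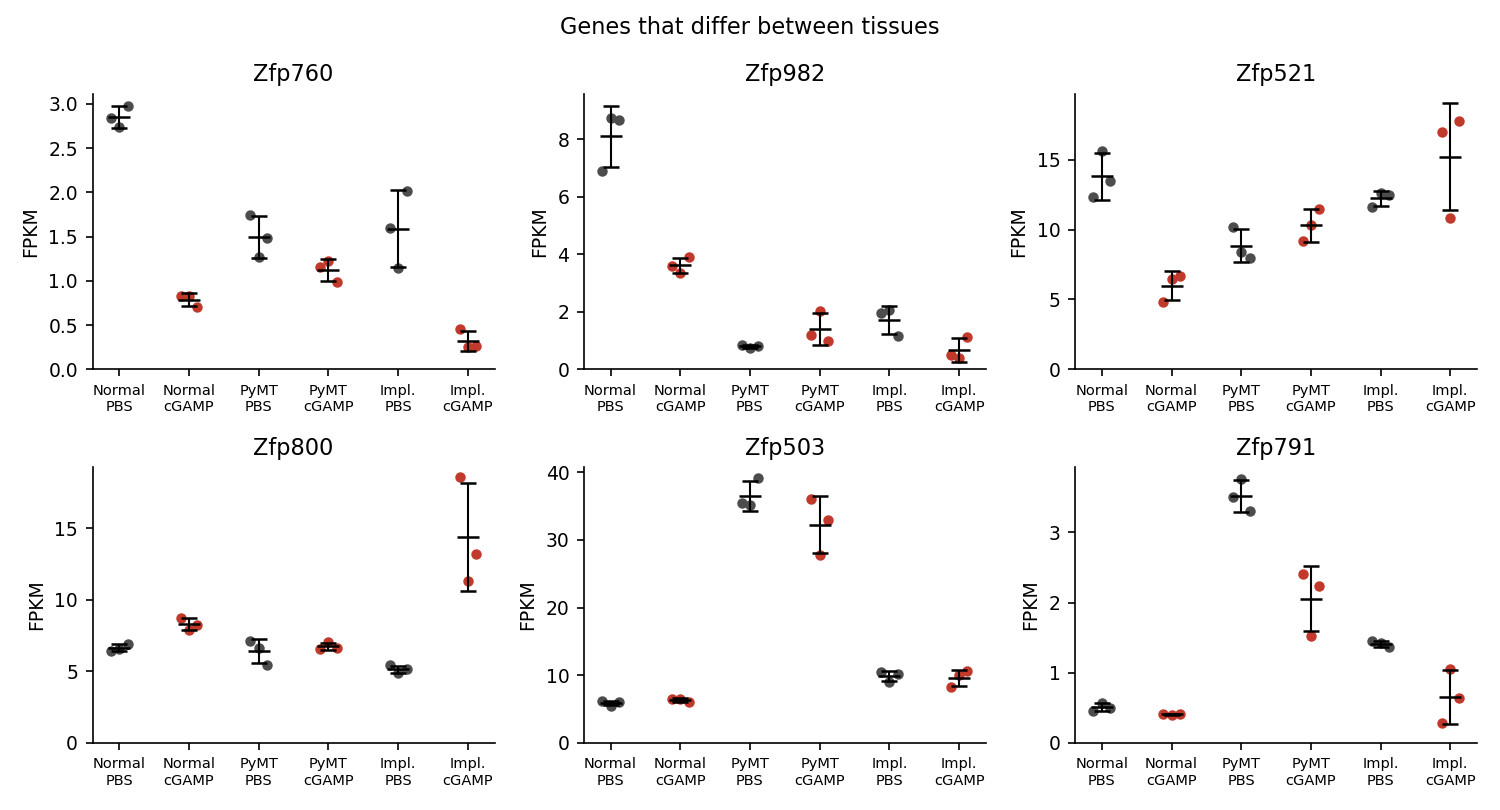
FPKM (vertical axes, from 0) per library of 6 members whose level or cGAMP response differed between tissues (PyMT, MMTV-PyMT; Impl., implanted). Points are libraries (grey PBS, red cGAMP), horizontal bars means and whiskers SD (n = 3), and Zfp800 reached 11.3 to 18.6 FPKM in implanted ECs under cGAMP while Zfp503 lay at 35.1 to 39.1 in MMTV-PyMT ECs under PBS.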

How the data were processed

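The authors sorted ECs, made libraries with a directional kit, checked reads with FastQC, aligned them to mm10 with STAR 2.7 and counted them with HTSeq-count; use of the strand is not given in the sources used here. The authors deposited 1 table of FPKM values for 16248 genes in 18 columns, and the step from counts to FPKM is not given in the sources used here. Of these columns, 6 carry only the treatment and were taken as normal ECs because no other tissue was left.

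FPKM steps within a gene gave whole reads for 99.99% of the genes (tolerance 0.02 reads), and the denominators equalled median-of-ratios size factors within 0.008%. Reads cover counting error only. Genes with FPKM of at least 1 in at least 3 libraries (13983) were tested on log2(FPKM + 1) with limma 3.58.1 (R 4.3.3; 1 mean per group over 18 libraries, trend, 2-sided, Benjamini-Hochberg adjustment), in 9 comparisons, and called at an adjusted p under 0.05. The fit was tested on simulated data. Between libraries of the same group, the mean chi-square of reads per gene lay between 4.08 and 31.32, so no library was listed 2 times within a group. Libraries of different groups were not compared in this way.

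Members, gene lists and tests were chosen with earlier results of these data known. Named were, among members past the threshold, the 10 largest falls and 5 largest rises per tissue, those with 1 direction in all tissues, the 5 largest differences of effect and the 4 largest tissue differences per direction, and the 5 highest levels. Protein types were read by script from GENCODE M21 (KRAB: L-Y-x-x-V-M-x-E), whose coordinates count from 1. Alternatives were a pseudocount of 0.1, no filter, total-read scaling, quantile normalization, voom, fits of the groups compared, a replicate block, each library left out and a limit of 1 on the log2 change.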

Additional observations from a re-analysis of the deposited data

Results flagged for a closer look

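The members below were singled out because the effect of cGAMP differed between 2 tissues by the test of the difference itself (limma with Benjamini-Hochberg adjustment). Values are differences of log2 changes, first tissue minus second. Between implanted and MMTV-PyMT ECs they were 1.23 for Zfp800, 0.85 for Zfp949, 0.82 for Zfp513, 0.76 for Zfp658 and -1.10 for Zfp982. Between implanted and normal ECs they were 1.35 for Zfp521, 1.08 for Zfp658, 1.02 for Zfp800, 0.76 for Zfp952 and 0.67 for Zfp984. The difference of Zfp984 was lost in 12 of 25 alternative fits. Between MMTV-PyMT and normal ECs they were 1.37 for Zfp982, 1.29 for Zfp521, 0.90 for Zfp931, 0.88 for Zfp760 and 0.82 for Zfp971, all genes that fell in normal ECs and did not pass the test in MMTV-PyMT ECs. The level of Zfp982 under PBS also differed between these tissues, with 8.10 FPKM in normal and 0.799 in MMTV-PyMT ECs on average, which bears on changes on the log2(FPKM + 1) scale.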

How the results depend on the processing

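The direction of the 3 medians and of each named call held under all alternatives. The number of members lower under cGAMP in normal, MMTV-PyMT and implanted ECs changed under scaling by total reads (MMTV-PyMT 52, implanted 85) and under fits of the groups compared alone (8 and 32). Scaling by total reads shifted the median of all tested genes by -0.11 and -0.23. It put 7 members higher in implanted ECs, 16 lower in all tissues, and 35 and 15 with an effect that differed from normal ECs in implanted and MMTV-PyMT ECs. The shares of all tested genes under that scaling are not given here. Fits of the groups compared alone left 2 members lower in all tissues and 7 whose effect differed between implanted and normal ECs, and quantile normalization gave 13 between MMTV-PyMT and normal ECs. A limit of 1 on the log2(FPKM + 1) change left 3, 0 and 0 members lower, 0, 0 and 1 higher, 0 lower in all tissues, 2 (implanted against MMTV-PyMT), 3 (implanted against normal) and 2 (MMTV-PyMT against normal) with differing effects, and 2, 5 and 6 that differed under PBS in the same order. Member medians in normal, MMTV-PyMT and implanted ECs were -0.28, -0.29 and -0.30 with a pseudocount of 0.1 and -0.31, -0.29 and -0.31 with voom. With total-read scaling they were -0.29 and -0.38 in MMTV-PyMT and implanted ECs, and with quantile normalization -0.22 in normal ECs. The cause of these shifts was not tested.

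With 1 library left out, 35 to 51, 7 to 21 and 38 to 49 members were lower, 6 to 9, 1 and 10 to 14 were higher, and medians ran from -0.22 to -0.18, -0.23 to -0.17 and -0.25 to -0.18 in normal, MMTV-PyMT and implanted ECs. Between 3 and 6 were lower in all tissues. Effects differed for 9 to 16 members (implanted against MMTV-PyMT), 5 to 14 (implanted against normal) and 6 to 12 (MMTV-PyMT against normal), and 41 to 65, 66 to 83 and 47 to 64 differed under PBS. Deviations from the group means were correlated between PBS and cGAMP libraries of a tissue. Same-numbered libraries gave -0.291 to 0.263 and differently numbered libraries -0.333 to 0.303, so the numbers were not taken as pairs. With a replicate block, 47, 14 and 49 members were lower. Of 186 calls of named members, 135 held in all 25 alternative fits, and 266 of 4650 values lost the call. At a median of 89 reads per library, small changes of single members are hard to call, and a missed call does not show an unchanged gene.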
